A study of Mus musculus with 2 samples.

Results

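The genes described here are 10 activity-induced effector genes, *Arc*, *Nptx2*, *Dusp1*, *Dusp4*, *Dusp5*, *Dusp6*, *Gadd45b*, *Ptgs2*, *Trib1* and *Btg2*, out of 37303 genes in the deposited table. They were chosen by symbol, as genes that neuronal firing induces and that do not encode transcription factors, and the high *Arc* and low *Nptx2* values of the KO library were known when they were selected on this table. Their KO and WT values are therefore given as a description, with no test. The series compared cerebral cortex of *Rbfox3*-/- mice (KO), homozygous for the tm1a allele on the C57BL/6N background, with that of WT mice, both labelled as strain B6. By the study's methods the mice were males at P56, isoflurane was given to all animals, and WT controls were littermates from crosses of heterozygous parents. There was 1 library for each genotype, the number of mice in it is not given in the sources used here, the spread between animals is not known, and no difference has a replicate check. *Rbfox3*, the deleted splicing regulator also known as NeuN, was at 6.46 FPKM in the KO library, against 57.3 FPKM in the WT library. The related *Rbfox1* was at 122 FPKM in KO and 112 FPKM in WT, and *Rbfox2* at 49.3 FPKM in KO and 45.2 FPKM in WT. FPKM, the unit of all levels here, counts sequenced fragments per length of transcript and per size of the library, so levels of different genes can be set side by side.

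Synaptic activity and growth factors drive calcium and ERK (a MAP kinase) signals to the neuronal nucleus, where transcripts are induced without new protein synthesis. Some of these immediate early genes encode transcription factors such as FOS. Others encode effectors that act directly at the synapse, on kinases, on mRNA or on lipids, and several of them feed back on the signal that induced them. *Nptx2* is usually placed among the slower genes, whose induction follows the first wave.

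Of the 10 effector genes, 9 were at a higher level in the KO library and *Nptx2* was lower. *Arc*, *Btg2*, *Dusp1* and *Trib1* were at least 2-fold higher in KO on the scale used here, the log2 of (KO + 1 FPKM) over (WT + 1 FPKM). Every count of 2-fold differences is on this scale unless a plain ratio is named. That is 4 of 10 genes, and none was 2-fold lower. A gene was taken as measured when neither library listed it at 0 and its mean reached 1 FPKM. Among all 12960 measured genes, 25 genes (0.193%) were 2-fold higher in KO and 33 genes (0.255%) were 2-fold lower. All 10 effector genes met this minimum. Since they were picked with these values known, their share is not read against the background. At these background shares a short gene list would usually hold no 2-fold gene, so finding none in a list below says little about that list. The median log2 ratio was 0.88 for the 10 genes and 0.02 for all measured genes.

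**Figure D1:**
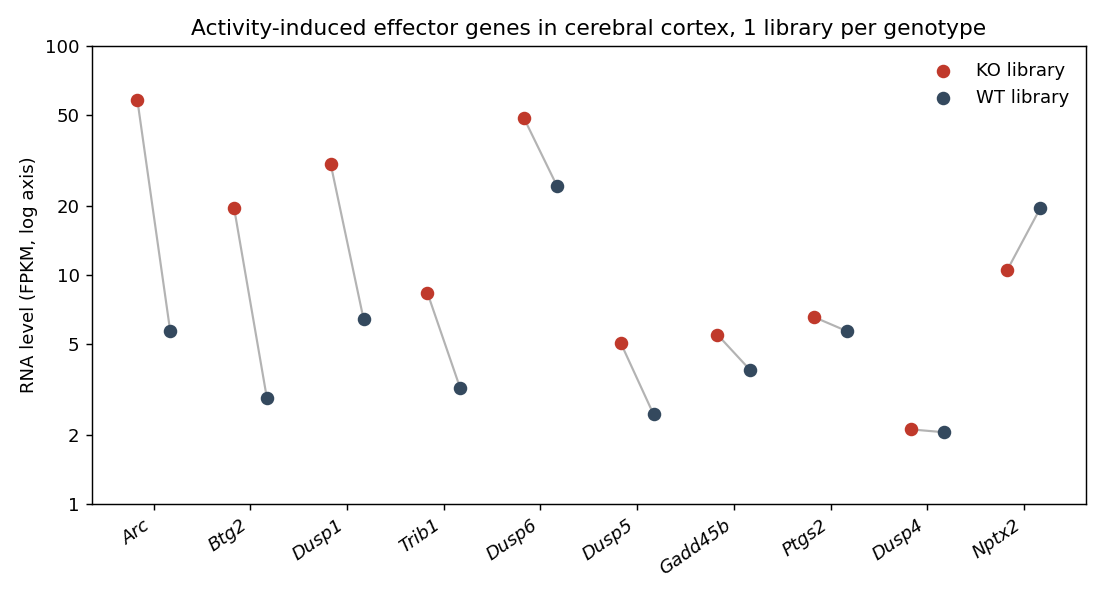
RNA level of each effector gene in FPKM on a log axis, with the KO library left and the WT library right of each gene name, ordered by the log2 ratio; each dot is 1 library and lines join the libraries. The KO dot is the higher in 9 genes, from *Arc* (58.1 FPKM in KO, 5.67 FPKM in WT) to *Dusp4* (2.11 and 2.05 FPKM), and the lower in *Nptx2* (10.5 and 19.6 FPKM).

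The effectors that act at the synapse differed in opposite directions, which was known when they were selected. *Arc* (ENSMUSG00000022602, GRCm38 chromosome 15, 74669083 to 74672570, minus strand) encodes a protein that promotes the endocytosis of AMPA receptors and that can assemble into capsid-like shells. It was at 58.1 FPKM in the KO library, against 5.67 FPKM in the WT library. The KO level was 10.2-fold higher, and the log2 ratio of 3.15 was the highest of all 12960 measured genes. *Arc* thereby stood at the 90.9th percentile of levels in KO and at the 33.4th percentile in WT.

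*Nptx2* (ENSMUSG00000059991, chromosome 5, 144545887 to 144557478, plus strand) encodes a secreted pentraxin that clusters AMPA receptors at excitatory synapses. It was at 10.5 FPKM in KO, against 19.6 FPKM in WT, or 1.86-fold lower in KO. Its log2 ratio of -0.83 was the 53rd lowest of the 12960 genes, and the gene did not reach the 2-fold limit. The related pentraxin *Nptx1* was at 50.6 FPKM in KO and 54.9 FPKM in WT. *Nptxr*, which encodes the membrane-bound member of the same complex, was at 145 FPKM in KO and 156 FPKM in WT. With *Nptx2*, none of the 3 genes was 2-fold different, and the median log2 ratio was -0.12.

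Genes known to act with ARC on AMPA receptors all differed by less than 2-fold, as did nearly all measured genes. This list of 9 genes holds AMPA receptor subunits, an auxiliary subunit and endocytic proteins. The median log2 ratio was 0.01, against 0.02 for all measured genes. The highest was *Gria2*, an AMPA receptor subunit, at 200 FPKM in KO and 176 FPKM in WT. The lowest was *Sh3gl3*, which encodes endophilin 3, an endocytic partner of ARC, at 22.2 FPKM in KO and 26.8 FPKM in WT.

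The 4 MAP kinase phosphatases among the effector genes ranged from a 4.76-fold difference to none. These dual-specificity enzymes remove phosphate from activated MAP kinases. *Dusp1* (ENSMUSG00000024190, chromosome 17, 26505590 to 26508519, minus strand) encodes a nuclear phosphatase of p38, JNK and ERK. It was at 30.4 FPKM in KO, against 6.40 FPKM in WT, a log2 ratio of 2.09 that was the 8th highest of all measured genes. *Dusp6* (ENSMUSG00000019960, chromosome 10, 99263231 to 99267488, plus strand) encodes a cytoplasmic phosphatase specific for ERK. It was at 48.2 FPKM in KO, against 24.5 FPKM in WT, or 1.97-fold higher in KO. It was the most abundant of the 10 genes in WT, and second to *Arc* in KO.

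*Dusp5* (ENSMUSG00000034765, chromosome 19, 53529109 to 53542431, plus strand) encodes a nuclear phosphatase specific for ERK. It was at 5.03 FPKM in KO, against 2.45 FPKM in WT. This is 2.05-fold higher in KO as a plain ratio, and with 1 FPKM added the log2 ratio was 0.81, below the limit of 1. With 5 FPKM added the log2 ratio of *Dusp5* was 0.43. That of *Dusp6* with 1 FPKM added (0.95) was nearer to the limit. An antisense gene, *AC137853.2*, overlaps *Dusp5* in the annotation. The library kit keeps strand, but whether the quantification used it is not given in the sources used here. *Dusp4* (ENSMUSG00000031530, chromosome 8, 34807297 to 34819894, plus strand), which encodes another nuclear phosphatase of this family, was at 2.11 FPKM in KO and 2.05 FPKM in WT, and had the lowest level of the 10 genes in both libraries.

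Over the wider family of 10 MAP kinase phosphatases, 8 were measured, 7 of them with a ratio above 0, and *Dusp1* was the only gene past 2-fold. The median log2 ratio was 0.35. The measured genes include *Dusp1*, *Dusp4*, *Dusp5* and *Dusp6*, which were picked with their values known, so this summary partly repeats that choice. The others were *Dusp8* (0.42), *Dusp7* (0.28), *Dusp16* (0.22) and *Dusp10*. *Dusp8*, which encodes a phosphatase of JNK and p38, was at 28.9 FPKM in KO and 21.4 FPKM in WT. *Dusp10* was lowest, with a log2 ratio of -0.04. *Dusp2* and *Dusp9* were below the minimum, at no more than 0.54 FPKM in either library. The 11 other dual-specificity phosphatases had a median of 0.03, from *Dusp14* (-0.21) to *Dusp28* (0.23), with none past 2-fold.

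The wider pathway on which these enzymes act held no gene with a 2-fold difference, which only 0.193% (higher) and 0.255% (lower) of all measured genes had. Of 20 genes of the ERK cascade and its other feedback inhibitors, 12 had a ratio above 0 and 8 below, and the median was 0.03. *Errfi1*, an induced inhibitor of the EGF receptor, was highest at 12.1 FPKM in KO and 9.40 FPKM in WT. *Map2k1*, which encodes the ERK kinase MEK1, was lowest at 59.7 FPKM in KO and 80.4 FPKM in WT.

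Among the effectors that act on mRNA and protein turnover, *Btg2* had the largest difference. *Btg2* (ENSMUSG00000020423, chromosome 1, 134075170 to 134079120, minus strand) encodes an antiproliferative protein that binds the CCR4-NOT deadenylase. It was at 19.7 FPKM in KO, against 2.89 FPKM in WT, or 6.80-fold higher in KO. Its log2 ratio of 2.41 was the 5th highest of all measured genes. In WT it stood 8th of the 10 effector genes by level, and in KO it stood 4th. Of the 5 measured genes of the BTG and TOB family, *Btg2* alone was past 2-fold, and the median, with *Btg2* included, was 0.68. *Tob1*, a further antiproliferative member, was at 35.3 FPKM in KO and 21.3 FPKM in WT, and *Btg3*, the lowest, was at 6.52 FPKM in KO and 8.61 FPKM in WT.

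*Trib1* (ENSMUSG00000032501, chromosome 15, 59648350 to 59656550, plus strand) encodes a pseudokinase that directs the COP1 ubiquitin ligase to its targets. It was at 8.34 FPKM in KO, against 3.19 FPKM in WT, a log2 ratio of 1.16 and the 19th highest of all measured genes. Its relative *Trib2* was at 9.28 FPKM in KO and 10.4 FPKM in WT, and *Trib3* was below the minimum. *Gadd45b* (ENSMUSG00000015312, chromosome 10, 80930091 to 80932204, plus strand), a stress-induced gene linked to DNA demethylation in neurons, was at 5.47 FPKM in KO and 3.83 FPKM in WT. This log2 ratio of 0.42 was the 414th highest. *Gadd45g* was at 6.58 FPKM in KO and 3.05 FPKM in WT, and *Gadd45a* at 3.48 FPKM in KO and 3.69 FPKM in WT.

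*Ptgs2* (ENSMUSG00000032487, chromosome 1, 150100124 to 150108010, plus strand) encodes cyclooxygenase 2, the inducible enzyme of prostaglandin synthesis. It was at 6.53 FPKM in KO and 5.66 FPKM in WT. The central 95% of log2 ratios of genes with 1 to 10 FPKM lay between -0.49 and 0.48. Those of *Ptgs2* (0.18), *Gadd45b* and *Dusp4* (0.03) fell within it, and those of *Trib1* and *Dusp5* above it. For genes with 10 FPKM or more the range was -0.36 to 0.41, and *Arc*, *Btg2*, *Dusp1*, *Dusp6* and *Nptx2* fell outside it. The effector genes were picked with these values known, so their place against the ranges is a description only. These ranges describe the spread of genes between the 2 libraries, which is not the spread between animals. Of 12 genes of prostaglandin synthesis and reception, with *Ptgs2* among them, 9 were measured. None was past 2-fold with 1 FPKM added, and the median was 0.08. The receptor gene *Ptger3* was highest, at 3.55 FPKM in KO and 1.59 FPKM in WT, a plain ratio of 2.23. *Ptgds*, a prostaglandin synthase abundant in meninges and choroid plexus, was lowest, at 258 FPKM in KO and 358 FPKM in WT.

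**Figure D2:**
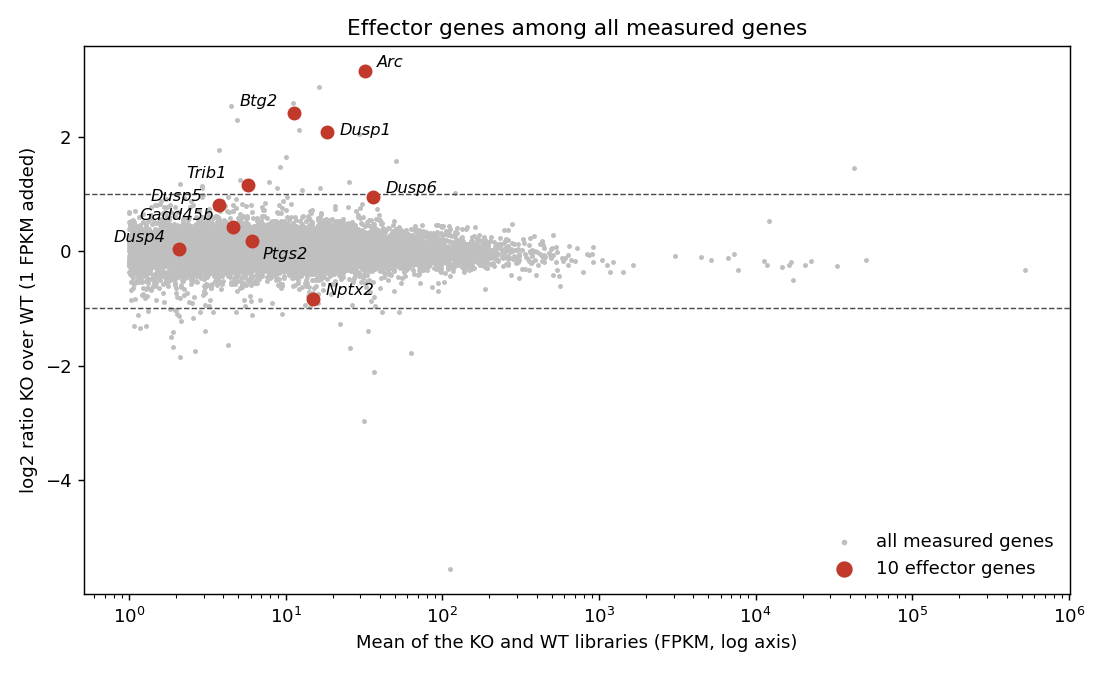
Log2 ratio of KO over WT with 1 FPKM added (vertical) against the mean level of the KO and WT libraries in FPKM (horizontal, log axis) for all 12960 measured genes in grey and the 10 effector genes in red; dashed lines mark a 2-fold difference. *Arc*, *Btg2*, *Dusp1* and *Trib1* lie above the upper line, *Dusp6* (0.95) just under it, and *Nptx2* (-0.83) above the lower line.

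Promoters in the RefSeq table (GRCm38.p6, 250 bases before to 50 after the start) matched 6 of the 10 genes, *Btg2*, *Dusp1*, *Dusp5*, *Dusp6*, *Gadd45b* and *Ptgs2*. *Arc*, *Nptx2*, *Dusp4* and *Trib1* were not matched. Both strands were searched for the cyclic AMP response element TGACGTCA, its shorter core TGACG, the AP-1 site TGANTCA, the EGR site GCGTGGGCG and the CArG box, to which the serum response factor binds. The full cyclic AMP response element was found in *Btg2* and *Dusp1*, 2 of 6 promoters, and in 1.79% of all 32851 promoters. In *Btg2* it begins 166 bases before the start and in *Dusp1* 143 bases before it. The shorter core, which each full element also contains, was found in 4 of 6 promoters (*Btg2*, *Dusp1*, *Dusp5* and *Ptgs2*) and in 20.8% of all promoters. CArG boxes were found in *Dusp5* alone, as neighbouring sites CCATATTTGG and CCTTATATGG that begin 82 and 72 bases before the start. At least 1 CArG box was found in 1.63% of all promoters, and 6 of 32851 held 2 or more. AP-1 and EGR sites were in none of the 6 promoters, and in 7.81% and 0.612% of all promoters. The 3 promoters with the full element or a CArG box, which 3.40% of all promoters hold, are shown because they carry these matches, and they were picked after the KO and WT values were known. The plain ratio of KO over WT was 6.80 for *Btg2*, 4.76 for *Dusp1* and 2.05 for *Dusp5*. For the matched genes with neither in the promoter it was 1.97 (*Dusp6*), 1.43 (*Gadd45b*) and 1.15 (*Ptgs2*). This grouping was made with the ratios known, and by the shorter core *Ptgs2*, with the lowest ratio, would stand in the first group. A link between these motifs and the ratios was not tested. Capitals mark the element, its core and the CArG boxes. A match describes letters only, and binding was not measured.
Btg2, chr1:134079106-134079405, minus strand: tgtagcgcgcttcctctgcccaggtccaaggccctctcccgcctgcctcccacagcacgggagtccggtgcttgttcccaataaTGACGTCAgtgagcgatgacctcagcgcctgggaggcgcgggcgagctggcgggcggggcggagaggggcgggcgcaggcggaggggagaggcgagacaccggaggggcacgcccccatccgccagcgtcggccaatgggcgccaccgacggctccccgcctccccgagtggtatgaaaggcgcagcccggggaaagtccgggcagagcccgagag
Dusp1, chr17:26508423-26508722, minus strand: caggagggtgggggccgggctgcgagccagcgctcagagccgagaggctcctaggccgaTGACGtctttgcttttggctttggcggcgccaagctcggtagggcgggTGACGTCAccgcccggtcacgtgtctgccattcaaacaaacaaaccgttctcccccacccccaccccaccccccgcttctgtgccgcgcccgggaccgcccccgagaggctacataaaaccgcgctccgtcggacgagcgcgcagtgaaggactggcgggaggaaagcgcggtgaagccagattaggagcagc
Dusp5, chr19:53528895-53529194, plus strand: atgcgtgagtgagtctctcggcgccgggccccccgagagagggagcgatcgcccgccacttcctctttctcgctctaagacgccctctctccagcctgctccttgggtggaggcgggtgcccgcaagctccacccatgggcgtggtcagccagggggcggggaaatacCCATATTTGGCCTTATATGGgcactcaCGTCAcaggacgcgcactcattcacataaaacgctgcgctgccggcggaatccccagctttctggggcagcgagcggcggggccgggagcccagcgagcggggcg

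RBFOX proteins recognise TGCATG, so the main annotated GENCODE transcript of each gene was also searched for it. It was found once each in *Arc* and *Dusp5*, 2 of 10 genes, and in 56.0% of the 12230 measured protein-coding genes. The median transcript length was 2741.5 bases for the 10 genes and 3132.5 bases for the measured genes. The *Arc* site lies in the 3′ UTR (chromosome 15, 74669655 to 74669660, minus strand), and the *Dusp5* site in coding sequence (chromosome 19, 53540987 to 53540992, plus strand). They are shown with their neighbouring bases and the motif in capitals, as the places in these transcripts that match this motif. Introns and other motifs were not searched, and binding was not measured.
Arc: agcccagctcgcTGCATGgcctttggctcc
Dusp5: tcgcccaccatcTGCATGgcttacctcatg

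The 10 genes are compact by their deposited loci. Their loci in the deposited table span 2.11 to 13.3 kb, with a median of 6.07 kb, against a median of 32.4 kb for the measured protein-coding genes. Their main annotated transcripts have a median of 4 exons, from 2 in *Btg2* to 10 in *Ptgs2*, against a median of 9 exons. Of the measured protein-coding genes, 57.7% have no more exons than *Ptgs2*. Of the measured protein-coding genes, 24.3% span no more than *Dusp5*, the longest of the 10 by deposited loci. In the GENCODE annotation the *Dusp1* gene runs from 26505590 to 26562128, well beyond its deposited end of 26508519.

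*Arc*, *Dusp1* and *Trib1* had more than 1 isoform in the deposited isoform table, which gives no transcript identifiers, and the other 7 genes had 1. Both *Arc* isoforms were higher in KO. The main isoform was at 34.3 FPKM in KO, against 4.07 FPKM in WT, and the minor isoform was at 23.9 FPKM in KO, against 1.61 FPKM in WT. The minor isoform therefore made up 41.1% of *Arc* RNA in KO and 28.3% in WT. The isoform shift, defined as 50% of the summed absolute differences of isoform shares, was 0.127 for *Arc*. Over 8677 genes that list several isoforms and reach 1 FPKM in KO as well as in WT the median shift was 0.0656, and *Arc* lay at the 75.3rd percentile.

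All 3 *Dusp1* isoforms were higher in KO in nearly equal measure. The main isoform was at 24.4 FPKM in KO, against 5.27 FPKM in WT, which is 80.3% and 82.3% of the gene's RNA. The other *Dusp1* isoforms were at 3.26 and 2.75 FPKM in KO, against 0.582 and 0.551 FPKM in WT. *Trib1* RNA was mostly its main isoform, at 7.96 FPKM in KO and 3.13 FPKM in WT, or 95.5% and 98.0%. The shift was 0.0203 for *Dusp1* and 0.0252 for *Trib1*, both below the median. The order of the 3 shifts depends on how low isoforms are treated: with 1 FPKM added to each isoform they were 0.0738 for *Arc*, 0.0938 for *Dusp1* and 0.0718 for *Trib1*, and *Arc* no longer stood above *Dusp1*. Isoform FPKM divides shared reads by a model, and its error is not given for these libraries.

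**Figure D3:**
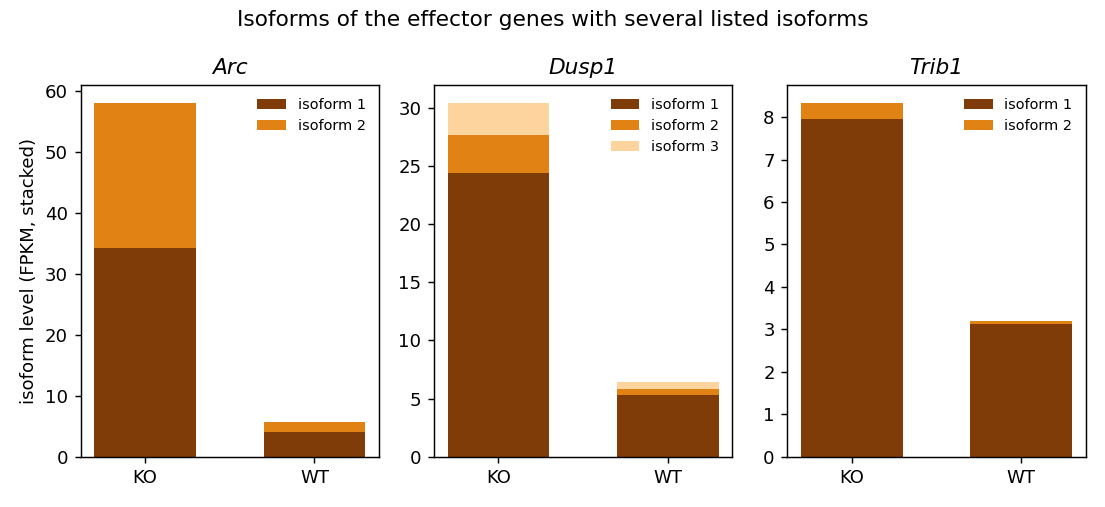
Isoform levels in FPKM, stacked for each gene, with the KO bar left of the WT bar and isoforms numbered from the most to the least abundant; each panel has its own axis from 0. Isoform 2 of *Arc* makes up 41.1% of the KO bar and 28.3% of the WT bar, while the proportions of *Dusp1* and *Trib1* look alike in KO and WT.

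The genes whose log2 ratio was nearest to that of *Arc*, among 9134 genes whose mean reached 5 FPKM, were *Fos* (2.86), *Npas4* (2.58), *Btg2* (2.41), *Junb* (2.11) and *Dusp1* (2.09). *Fos*, *Npas4* and *Junb* encode activity-induced transcription factors. *Fos* was at 29.6 FPKM in KO, against 3.22 FPKM in WT. *Npas4* was at 19.8 FPKM in KO, against 2.47 FPKM in WT. No gene lay within 0.29 of *Arc* on the log2 scale. Those nearest to *Nptx2* were *Ano3* (-0.81), *Pcbd2* (-0.86), *Cbln4* (-0.86), *Nefm* (-0.87) and *Pisd-ps1* (-0.87), none of which is in the lists of activity-induced genes used here. With 2 libraries, likeness of pattern is only likeness of this ratio.

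Other activity-induced genes were divided between higher and lower values by list. Of 19 activity transcription factors, 17 were measured and 7 were 2-fold higher in KO, namely *Fos*, *Npas4*, *Egr2* (2.53), *Junb*, *Nr4a1* (2.04), *Egr4* (1.21) and *Egr1* (1.02). None was 2-fold lower, the lowest being *Nr4a2* (-0.49), and the median was 0.60. Of 25 other rapidly induced effectors, 24 were measured and 4 were 2-fold higher in KO. These were *Cyr61*, a secreted matrix protein gene (2.29), *Ier2*, a nuclear protein gene (1.76), *Arl4d*, a small GTPase gene (1.46), and *Per1*, a clock gene that activity also induces (1.06). The lowest was *Pim1*, a kinase gene (-0.54), and the median was 0.25. As plain ratios *Csrnp1* (2.83-fold), *Sik1* (2.63-fold) and *Gadd45g* (2.16-fold) were also past 2-fold higher in KO, and *Pim1* was 2.08-fold lower.

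Most slowly induced effectors had ratios below 0. Of 17 such genes besides *Nptx2*, 16 were measured, 4 with a ratio above 0 and 12 below. None was past 2-fold in either direction with 1 FPKM added. The share of all measured genes below 0 was not counted, but their median near 0 means that both signs were common. The median log2 ratio of the slowly induced list was -0.22, against 0.02 for all measured genes. On that scale *Tac1*, a neuropeptide gene that striatal projection neurons also express, was lowest, at 8.85 FPKM in KO and 17.9 FPKM in WT, a plain ratio 2.03-fold lower in KO. *Inhba*, which encodes an activin subunit, had the lowest plain ratio, at 0.873 FPKM in KO and 2.49 FPKM in WT, or 2.86-fold lower in KO. All 8 striatal markers found in the table were also below 0 on the log2 scale, with a sum of 75.4 FPKM in KO and 205 FPKM in WT, and their part in the values of the slowly induced list was not tested. *Pcsk1*, a prohormone convertase gene, was highest, at 15.9 FPKM in KO and 13.3 FPKM in WT. Of the 25 genes that were 2-fold higher in KO among all 12960 measured genes, 15 belong to the 10 effector genes, the transcription factors or the other rapidly induced effectors. From the slowly induced list there were 0. The lists were drawn up with results of these libraries known.

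**Figure D4:**
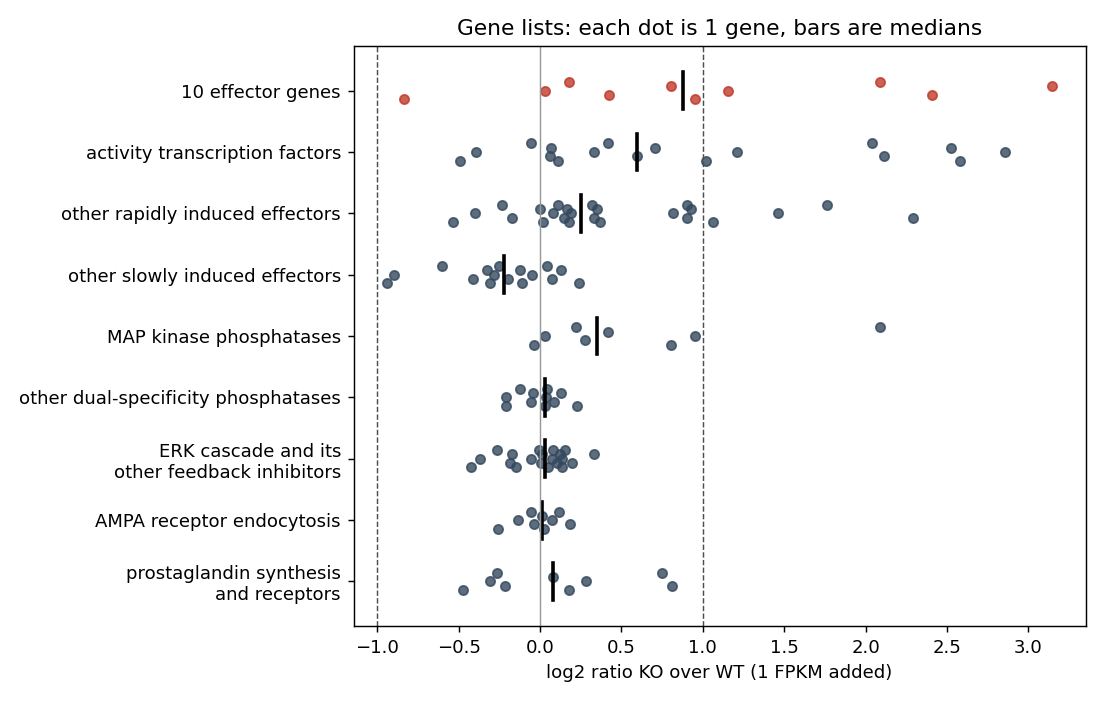
Log2 ratio of KO over WT with 1 FPKM added for the measured genes of 9 lists, with 1 dot per gene and black bars at the medians; dashed lines mark a 2-fold difference. The median is 0.88 for the 10 effector genes, 0.60 for the transcription factors, 0.25 for other rapidly induced effectors and -0.22 for slowly induced effectors, and it lies between 0.01 and 0.08 for the other dual-specificity phosphatases, the ERK cascade, the AMPA receptor endocytosis genes and the prostaglandin genes.

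Markers of other regions and cell types also differed between these libraries. The sum of 8 striatal markers was 75.4 FPKM in KO, against 205 FPKM in WT, and 5 of the 8 were 2-fold lower in KO, with *Penk* at 13.2 FPKM in KO and 60.5 FPKM in WT. The sum of 5 choroid plexus markers was 6.10 FPKM in KO, against 230 FPKM in WT, with *Ttr* alone at 3.71 FPKM in KO and 221 FPKM in WT, and all 3 measured were 2-fold lower in KO. The sum of 7 oligodendrocyte markers was 1062 FPKM in KO, against 1556 FPKM in WT, with 0 of 7 past 2-fold. The 8 markers of dentate gyrus and hippocampus summed to 21.9 FPKM in KO and 30.9 FPKM in WT, and 4 of them were below the minimum. Most of both sums was *Wfs1*, at 16.5 FPKM in KO and 25.1 FPKM in WT. The other measured markers of this list were *Prox1* (2.84 FPKM in KO, 2.93 FPKM in WT), *C1ql2* (1.09 and 0.967 FPKM) and *Fibcd1* (0.822 and 1.33 FPKM). No marker of these lists was listed at 0. Their part in the values of *Arc*, *Nptx2*, the other effector genes and the gene lists was not tested. In bulk tissue, fewer cells of a type and less RNA in each cell cannot be told apart.

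The summed markers of cortical neurons differed little. The 7 markers of excitatory neurons summed to 889 FPKM in KO and 846 FPKM in WT, and the 7 of inhibitory neurons to 482 FPKM in KO and 497 FPKM in WT. Single inhibitory markers went both ways, 5 with a ratio above 0 and 2 below. They ranged from *Sst* (132 FPKM in KO, 167 FPKM in WT) to *Pvalb* (36.3 and 28.9 FPKM). The sums were 338 and 353 FPKM for 6 astrocyte markers, 71.9 and 73.2 FPKM for 6 microglia markers, and 49.6 and 53.7 FPKM for 8 markers of blood and meninges, in KO and WT. For 6 endothelial markers they were 30.7 FPKM in KO and 40.6 FPKM in WT, with *Cldn5*, a tight junction gene, 2-fold lower in KO.

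**Figure D5:**
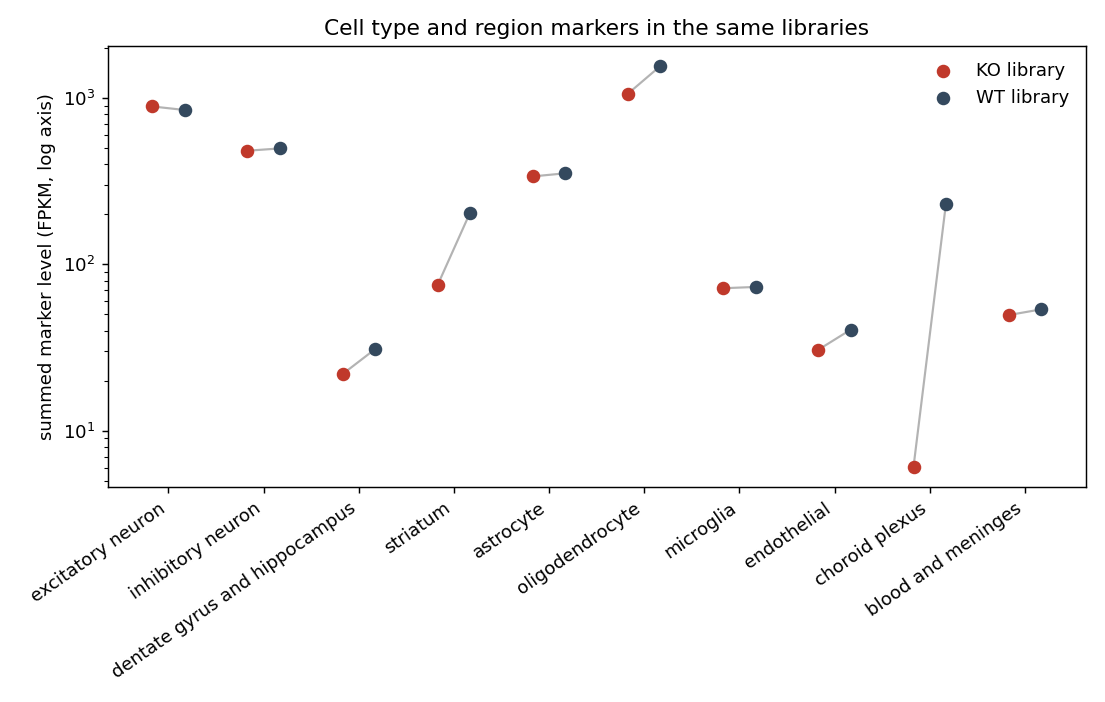
Summed FPKM of each list of cell type or region markers on a log axis, with the KO library left and the WT library right of each list name; each dot is 1 library. The sums differ most for choroid plexus (6.10 FPKM in KO, 230 FPKM in WT) and striatum (75.4 and 205 FPKM), and those of excitatory neurons are 889 and 846 FPKM.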

How the data were processed

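Total RNA of cerebral cortex was sequenced as 1 KO and 1 WT library with a strand-specific kit. The extraction kit is NucleoSpin in the labels, whose wording covers hippocampus as well, and RNeasy in the study's methods. The deposited gene table (37303 genes) and isoform table (90835 isoforms) hold FPKM made by the authors, whose notes name TopHat, Cufflinks and GRCm38, without versions. The authors' ratios, p-values, lists of changed genes and term lists were not used.

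Log2 ratios of KO over WT were computed with 1 FPKM added (Python 3.11.15, pandas 2.3.3, numpy 2.4.6) for 12960 genes above 0 in both libraries with a mean of at least 1 FPKM. No test was possible with 1 library in each group, and a difference of 2-fold was counted. The arithmetic was checked on WT values multiplied by known folds and on known isoform shares, without noise. That check does not show how reliable a 2-fold difference is. Another 82 genes reached a mean of 1 FPKM but were listed at 0 in 1 library. FPKM carries no read counts, so counting intervals could not be had. Across 1951 one-isoform genes under 0.3 FPKM, the commonest ratio of KO to WT was 0.889, which shared single fragments would give at a KO depth 1.13 times that of WT.

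The members and gene lists were chosen with earlier results of these data known. Named genes are all members, the highest, the lowest and all 2-fold different genes of each list (marker lists are mostly given as sums), the 5 nearest in ratio to *Arc* and to *Nptx2*, and, chosen after their values were seen, relatives and partners of the members as context and list genes past 2-fold as plain ratios. Gene symbols are those of the table. Positions are 1-based, from the deposited loci. Transcripts and exons come from GENCODE M21 (the longest transcript with an APPRIS principal tag, where there is one), and promoters from RefSeq. Alternatives were the added value, the filter, the scaling and the isoform sum.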

Additional observations from a re-analysis of the deposited data

How the results depend on the processing

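Alternatives were 0.1 or 5 FPKM added, KO values rescaled to a median ratio of 0 or to an equal upper quartile, and isoform sums. All 10 effector genes kept the direction of their log2 ratio, but these alternatives could hardly change it. An added value cannot reverse a ratio, and isoform sums gave the same member ratios. The rescaling factors of 0.990 and 0.982 could reverse only a ratio near 0, and *Dusp4* stayed above 0 at 0.018 and 0.010. The ratio ranged from 2.56 to 3.33 for *Arc*, 1.64 to 2.72 for *Btg2*, 1.64 to 2.23 for *Dusp1*, 0.70 to 1.36 for *Trib1* and -0.89 to -0.66 for *Nptx2*. With 0.1 FPKM added 5 of the 10 genes were 2-fold higher, since *Dusp5* then reached 1.01, and with 5 FPKM added 3 were, without *Trib1*. A ratio or median counted as moved when it differed by more than 0.23, the SD of log2 ratios over genes of at least 10 FPKM, a count when it differed by more than 1.5 times, and an isoform shift when it differed by more than the median shift of 0.0656. With 5 FPKM added the median of the 10 genes was 0.57 and that of the BTG and TOB family 0.38, because an added value shrinks the ratios of low genes. The count of genes 2-fold higher in KO was 57 with 0.1 FPKM added, 14 with 5 FPKM added and 64 with genes listed at 0 included, and the count of lower genes was 71, 7 and 76, and 11 with a mean of at least 5 FPKM. With 1 FPKM added to each isoform the shift of *Dusp1* was 0.0938, that of *Arc* 0.0738 and that of *Trib1* 0.0718, so *Arc* no longer had the largest of the 3. With only isoforms of at least 5% of the gene, *Trib1* had 1 isoform and a shift of 0. No paired analysis was possible because each genotype has 1 library. The depth of the libraries is unknown, so the precision of low values such as those of *Dusp4* cannot be given.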
